A study of Mus musculus with 48 samples.

Results

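The subject here is chromatin accessibility around 6 genes of the basement membrane and its surroundings: the type IV collagen genes Col4a1 and Col4a2, the integrin genes Itgb1 and Itga6, the fibulin gene Fbln5 and the thrombospondin gene Thbs1. Members are the merged ATAC-seq peaks centred in 5 windows of mouse build mm9: chromosome 8 from 11.10 to 11.55 Mb for Col4a1 and Col4a2 together, chromosome 8 from 131.15 to 131.32 Mb for Itgb1, chromosome 2 from 71.55 to 71.75 Mb for Itga6, chromosome 12 from 102.90 to 103.10 Mb for Fbln5, and chromosome 2 from 117.85 to 118.02 Mb for Thbs1. The windows held 86 of the 114043 merged peaks, all of equal length: 38 at Col4a1-Col4a2, 7 at Itgb1, 19 at Itga6, 11 at Fbln5 and 11 at Thbs1. Among merged peaks, position in these windows alone made them members, and the windows were chosen with earlier results of these data known.

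The libraries came from small cell lung cancers of mice in which Cre recombinase, delivered by adenovirus, removed Trp53, Rb1 and p130. All groups carry the label Trp53-/-;Rb1-/-;p130-/-;R26mG. Groups were 8 Ad-CMV-Cre libraries with Nfib amplification (5 liver metastases, 1 lymph node metastasis and 2 lung tumors), 7 Ad-CMV-Cre lung tumor libraries without it, 7 Ad-CGRP-Cre liver metastases and 11 Ad-CGRP-Cre lung tumors, 1 of which was also labelled Nfib-amplified. Another 15 Ad-CMV-Cre libraries were marked low in enrichment and entered no comparison. The CMV promoter is broadly active, while the CGRP promoter is that of a peptide of neuroendocrine cells. Animal ages are not given in the labels. Nfib encodes a transcription factor of the nuclear factor I family.

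Metastases made up 6 of the 8 Nfib-amplified and 0 of the 7 not amplified CMV libraries, so tissue and amplification cannot be told apart in the deposited contrast. Libraries of bulk tumor were measured, so a smaller share of cells with an open site and less opening per cell cannot be told apart either. Values per library and sequencing depth are unknown here: the tables give, per peak, the authors' mean normalised count over libraries and a fitted log2 fold change with its standard error (SE). A peak is called raised or lowered where the authors' deposited table has its adjusted p below 0.05.

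The basement membrane is a thin sheet of matrix under epithelia and around vessels, built of networks of laminin and type IV collagen. Cells hold on to it through integrins, receptors made of an alpha and a beta chain. Carcinoma cells meet this sheet when they leave their tissue of origin and enter or leave vessels. Col4a1 and Col4a2 encode the chains that join in the most widespread type IV collagen. Itgb1 encodes a beta chain shared by many integrins, and Itga6 an alpha chain of laminin receptors. Fbln5 encodes an extracellular protein of elastic fiber assembly, and Thbs1 a matrix glycoprotein known for limiting vessel growth and for activating TGF-beta.

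Promoters of 4 of the 6 genes (Col4a1, Col4a2, Itgb1 and Fbln5) were matched in a RefSeq table of another build, GRCm38.p6, so their positions are not set against the mm9 peaks. The first sequence is shown because the collagen genes share a window and their listed starts overlap. It runs from the first transcribed base of Col4a2 to that of Col4a1 (chr8:11312805-11312826, plus strand). By these listed starts, both genes transcribe the 22 bases in opposite directions. The others are the 250 bases before the start of Itgb1 (chr8:128685404-128685653, plus strand) and of Fbln5 (chr12:101819120-101819369, minus strand), the loci with the strongest peak and with no raised peak. Capitals mark GGGCGG on either strand, the GC box.
Col4a1-Col4a2 starts: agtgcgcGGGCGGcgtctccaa
Itgb1: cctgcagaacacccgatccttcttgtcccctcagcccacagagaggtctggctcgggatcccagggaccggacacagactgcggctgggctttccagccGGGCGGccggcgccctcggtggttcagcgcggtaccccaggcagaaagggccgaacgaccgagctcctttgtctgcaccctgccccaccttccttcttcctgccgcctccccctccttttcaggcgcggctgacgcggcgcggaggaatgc
Fbln5: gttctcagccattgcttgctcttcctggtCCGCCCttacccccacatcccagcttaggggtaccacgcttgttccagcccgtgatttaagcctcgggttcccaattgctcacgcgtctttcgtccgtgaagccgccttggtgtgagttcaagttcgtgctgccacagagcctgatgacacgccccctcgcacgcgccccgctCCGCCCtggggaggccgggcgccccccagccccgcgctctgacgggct

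Bases G and C made up 68.0% of the Itgb1 stretch and 65.2% of the Fbln5 stretch. The GC box was found at 1 place before Itgb1, 2 before Fbln5 (the first of its 2 listed starts), 2 before Col4a2 and 0 before Col4a1. The letters GGGCGG are held by 32.7% of all 32851 promoters in the 250 bases before the start. A short nuclear factor I motif (TTGGCA, both strands) and the full palindromic nuclear factor I site were in none of the promoters of these 4 genes, against 12.3% and 0.0365% of all promoters. No match says only that these letters are not in these windows.

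With Nfib amplification, the loci held gains and losses side by side. Of the 86 peaks, 20 were raised and 16 lowered in Nfib-amplified CMV libraries, and 50 passed in neither direction, by the authors' deposited table. Together these were 36 of 86, while 46.5% of all tested peaks were called. Raised peaks made up 23.3% of the members, against 34.3% of all tested peaks; lowered peaks made up 18.6%, against 12.2%. The collagen window held 12 raised and 8 lowered of 38 peaks, Thbs1 4 and 3 of 11, Itga6 3 and 2 of 19, Itgb1 1 and 1 of 7, and Fbln5 0 and 2 of 11. The median log2 fold change in the authors' deposited table was 0.16 over the 86 peaks and 0.60 over all peaks, and 57 of the 86 lay below 0.60. On this scale, a value between 0 and 0.60 is above 0 on the authors' scaling and below the typical peak. With the values centred on that median, 12 members were raised and 32 lowered (14% and 37.2%), against 19.9% and 25.5% of all peaks centred the same way.

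**Figure D1:**
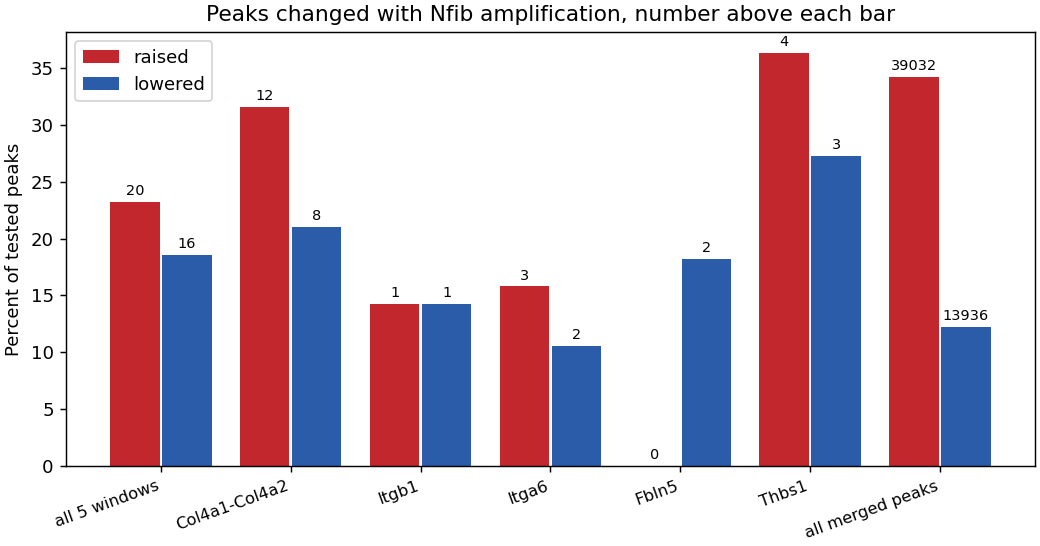
Percent of tested peaks (vertical axis) raised (red) or lowered (blue) in Nfib-amplified over not amplified CMV libraries, for all 5 windows, each window and all merged peaks; the number of peaks stands above each bar. Members had 20 raised and 16 lowered peaks, and Fbln5 had 0 raised.

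At the type IV collagen genes, large gains and large losses lay within the same 0.45 Mb. The authors' deposited table put the largest gain of the 86 peaks at chr8:11405670-11406170, where the log2 fold change was 5.0 (SE 0.92, adjusted p = 1.70e-06), a 32-fold difference. Its mean normalised count of 16.3 was below the median of all peaks (21.2). The largest loss lay in the same window at chr8:11372081-11372581, at -3.93 (SE 0.66, adjusted p = 1.34e-07) by the authors' deposited table. Both also passed the authors' stricter test, which asks for a change of more than 0.5 on the log2 scale, with adjusted p = 5.07e-05 and 1.43e-05 by the authors' deposited table. That stricter test kept 12 raised and 5 lowered members, against 19.0% and 4.64% of all peaks (23.6% in either direction).

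The raised collagen peaks next in size were weak in count. The authors' deposited table gave 3.65 (SE 0.97) at chr8:11289429-11289929, with a mean count of 9.70, and 3.24 (SE 0.95) at chr8:11279249-11279749, with 10.3. The raised peak chr8:11241410-11241910, with a mean count of 15.3, also had 3.24 (SE 0.88) by the authors' deposited table. It and the smaller gains that follow were chosen after their values were seen. Those smaller gains were 2.91 (SE 0.56) at chr8:11471161-11471661 and 2.87 (SE 0.61) at chr8:11419172-11419672. Their mean counts, 21.6 and 37.6 by the authors' deposited table, were above the median of all peaks (21.2). After the largest loss, the next lowered peaks in size were chr8:11169376-11169876 at -2.74 (SE 0.54) and chr8:11140569-11141069 at -1.87 (SE 0.50) by the authors' deposited table. The loss at 11169376 had a raised peak starting 2.08 kb further on (chr8:11171452-11171952, chosen after its values were seen), at 2.85 (SE 0.87, adjusted p = 0.00412) by the authors' deposited table, so opposite changes were called at adjoining peaks.

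Of the 3 strongest collagen peaks by mean count, 2 were lowered. At chr8:11183514-11184014, with a mean count of 169, accessibility was 0.50-fold in amplified libraries (log2 fold change -1.01, SE 0.19, adjusted p = 1.95e-06) by the authors' deposited table. At chr8:11155985-11156485, with 122, it was -0.86 (SE 0.33, adjusted p = 0.0259) by the authors' deposited table, and the stricter test did not call it (adjusted p = 0.571). At chr8:11497274-11497774, with 134, the authors' deposited table gave -0.10 (95% interval -0.42 to 0.22), which was not called; centred on the median of all peaks it was -0.70 and called lowered (adjusted p = 1.04e-04). In GRCm38, Col4a2 is followed by Rab20, Naxd and Cars2, and peaks were not assigned among these genes or placed against exons or introns, since no mm9 annotation was used here.

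**Figure D2:**
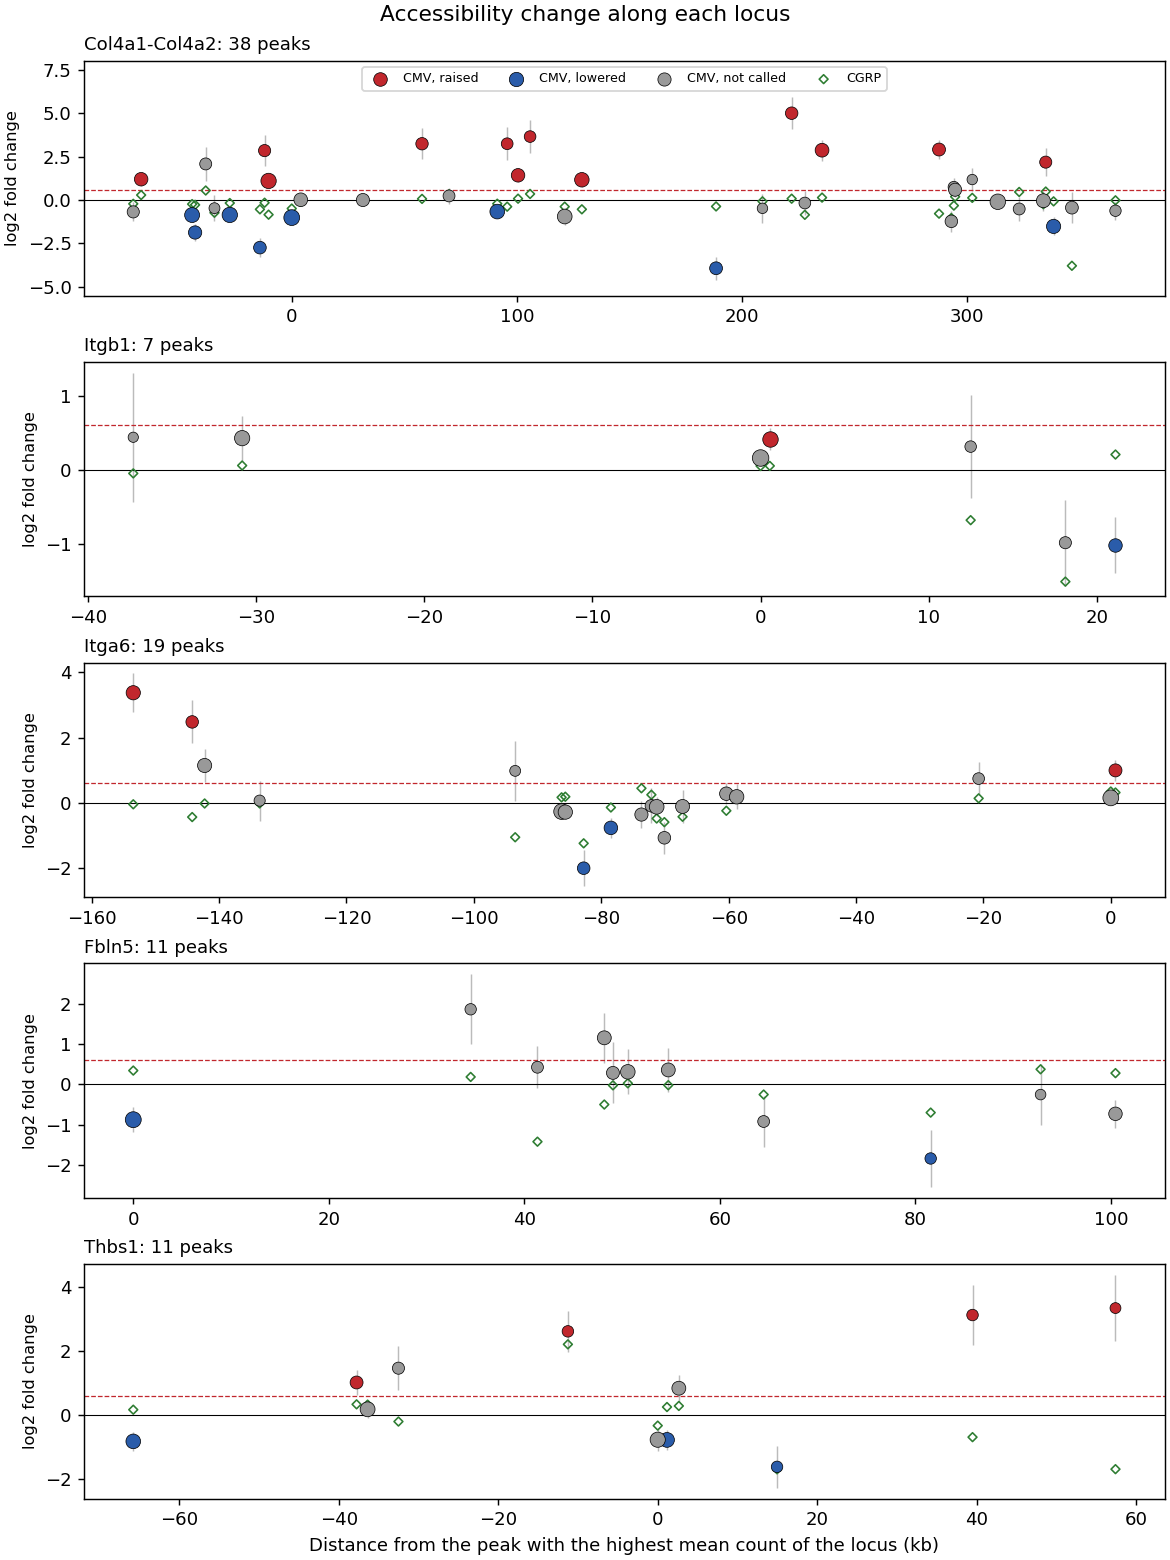
log2 fold change (vertical axis) of every peak against its distance in kb from the strongest peak of its locus by mean count. Circles are Nfib-amplified over not amplified CMV libraries with SE bars, sized by mean count and coloured by call (red raised, blue lowered, gray neither); green diamonds are liver metastases over lung tumors with Ad-CGRP-Cre; the dashed line is the CMV median of all peaks, 0.60. Red and blue circles are mixed along Col4a1-Col4a2, with runs of either colour.

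At Itgb1, the shared integrin beta chain, 1 of 7 peaks was raised and 1 lowered. Its leading peak, chr8:131209292-131209792, had the highest mean count of the 86 (311, above 99.0% of all peaks) and a log2 fold change of 0.16 (95% interval -0.04 to 0.37, adjusted p = 0.188) by the authors' deposited table. The next peak, whose start lies 0.547 kb further on, was raised by 0.42 (SE 0.15, adjusted p = 0.0159), a 1.33-fold difference, in the authors' deposited table, and turned to -0.19 when centred on the median of all peaks. Another strong peak, chr8:131178450-131178950 with a mean count of 114, had 0.43 (95% interval -0.16 to 1.03) by the authors' deposited table. The 1 lowered peak, chr8:131230404-131230904, was at -1.01 (SE 0.38, adjusted p = 0.0205) by the authors' deposited table. The other strong peaks also turned sign on centring, the leading one to -0.44 with an adjusted p of 1.84e-04. All 7 Itgb1 peaks lay below the median of all peaks, 0.60, and none passed the stricter deposited test.

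At Itga6, the alpha chain of laminin receptors, 3 of 19 peaks were raised and 2 lowered, and none of the 3 strongest was among them. The raised peaks chr2:71557522-71558022 and chr2:71566773-71567273, 9.25 kb apart, had 3.37 (SE 0.60, adjusted p = 5.98e-07) and 2.48 (SE 0.66, adjusted p = 9.48e-04) by the authors' deposited table. With a mean count of 52.5, the first was stronger than most raised members, whose median was 18.9. Another raised peak, chr2:71711731-71712231, had 0.99 (SE 0.33, adjusted p = 0.00829) by the authors' deposited table. That call was lost on centring (0.39, adjusted p = 0.335) and under the stricter test (adjusted p = 0.324). Lowered were chr2:71628237-71628737 at -2.01 (SE 0.56, adjusted p = 0.00161) and chr2:71632510-71633010 at -0.77 (SE 0.30, adjusted p = 0.0258) by the authors' deposited table; the stricter test called the first and not the second (adjusted p = 0.0339 and 0.687). Among the strongest Itga6 peaks, the authors' deposited table gave 0.15 (SE 0.15) at chr2:71710999-71711499, -0.27 (SE 0.16) at chr2:71624771-71625271 and -0.13 (SE 0.29) at chr2:71639697-71640197, none past the threshold. Centred on the median of all peaks, all 3 were called lowered, at -0.45 (adjusted p = 0.0063), -0.87 (adjusted p = 1.00e-06) and -0.73 (adjusted p = 0.0309) in that order. In GRCm38, Dlx1 and Dlx2 precede Itga6, and Pdk1, which encodes a kinase of pyruvate dehydrogenase, follows it. These peaks were not assigned among these genes.

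At Fbln5, 2 of 11 peaks were lowered and none raised. The strongest, chr12:102956463-102956963 with a mean count of 190, was at -0.88 (SE 0.31, adjusted p = 0.0125), 0.55-fold, in the authors' deposited table. The other, chr12:103038039-103038539, was weak (mean count 8.59) and at -1.84 (SE 0.71, adjusted p = 0.0251) by the authors' deposited table. The remaining strong pair, chr12:103007057-103007557 and chr12:103004649-103005149, had 0.31 (SE 0.56) and 1.15 (SE 0.63) by the authors' deposited table, with 95% intervals that include 0. Neither loss was called by the stricter test (adjusted p = 0.471 and 0.177) or at a threshold of 0.01. At the median SE of the locus (0.63, against 0.59 over all merged peaks), changes below 1.23 in log2 would not reach an unadjusted p of 0.05. Tc2n and Trip11 flank Fbln5 in GRCm38.

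At Thbs1, 4 of 11 peaks were raised and 3 lowered. The 3 largest gains were at weak sites, chr2:117993516-117994016 at 3.35 (SE 1.04, adjusted p = 0.00467), chr2:117975593-117976093 at 3.13 (SE 0.95) and chr2:117924861-117925361 at 2.62 (SE 0.65, adjusted p = 3.74e-04) by the authors' deposited table, with mean counts of 6.27, 9.01 and 8.98. Lowered were chr2:117951083-117951583 at -1.63 (SE 0.67), chr2:117870366-117870866 at -0.83 (SE 0.30) and chr2:117937286-117937786 at -0.78 (SE 0.31) by the authors' deposited table. The strongest peak, chr2:117936124-117936624 with a mean count of 106, was also at -0.78 (SE 0.34), but with an adjusted p of 0.0515 in the authors' deposited table it missed the threshold; centred, it was -1.38 and called lowered (adjusted p = 3.64e-04). A second strong peak, chr2:117899747-117900247, had 0.18 (SE 0.28) by the authors' deposited table. None of the 3 losses passed the stricter deposited test, while 3 of the 4 gains did.

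Pooled over the loci, mean counts had a median of 42.3 in lowered and 18.9 in raised members, and of 37.6 and 21.1 in lowered and raised peaks overall. Single loci could differ from this: at Itgb1 the raised peak had a mean count of 133 and the lowered one 31.4, and at Itga6 the highest count among called peaks, 52.5, was of a raised one. Above the median count of all peaks, 11 of 46 members were lowered and 10 raised (23.9% and 21.7%), against 17.7% and 34.1% of all peaks with such counts. At or below it, 5 of 40 were lowered and 10 raised (12.5% and 25%), against 6.81% and 34.4%. The mean count averages over libraries, so it depends on how many have the site open and on how open it is. How far this bears on these counts was not tested, since values per library are unknown here.

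**Figure D3:**
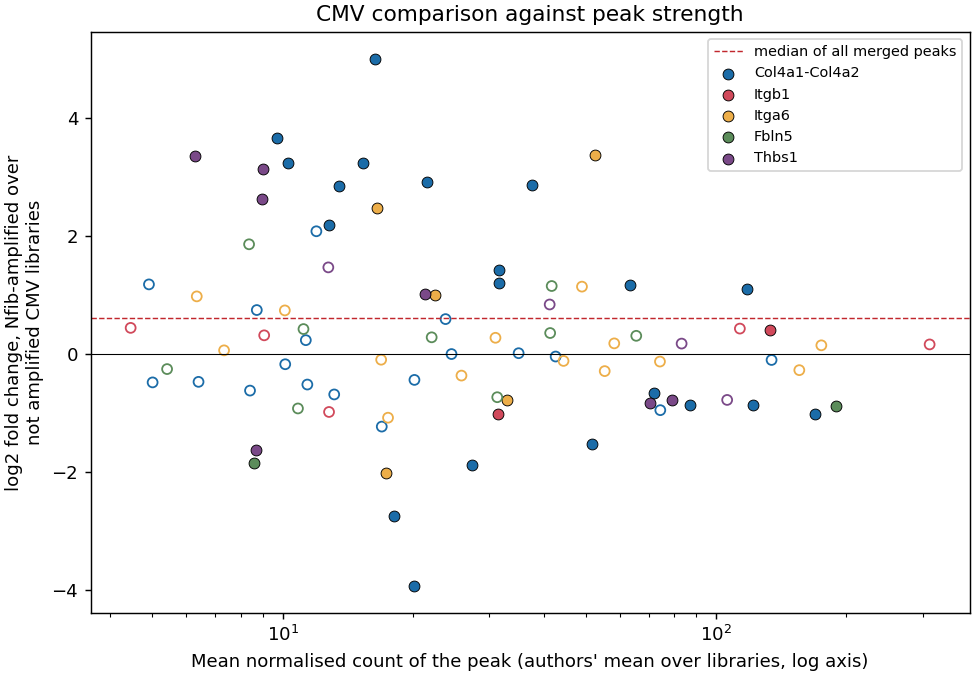
log2 fold change of each member in Nfib-amplified over not amplified CMV libraries (vertical axis) against its mean normalised count (log axis), coloured by locus; filled points passed an adjusted p of 0.05 and open points did not. Values above 2 were confined to peaks with a mean count under 60, and the peak with the highest count, at Itgb1, lay at 0.16.

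In liver metastases over lung tumors with Ad-CGRP-Cre, few peaks of these loci were called. Of 82 members with an adjusted p, 1 was lowered and 0 raised in the authors' deposited table, against 0.779% and 0.0752% of all peaks (0.854% in either direction). The stricter test called 0 members, against 0.0580% of all peaks, every one of those lowered. At an unadjusted p under 0.05, 7 members were lower and 2 higher in the authors' deposited table (8.14% and 2.33%), against 6.25% and 3.37% of all peaks. The lowered peak, chr8:11530205-11530705 at the far end of the collagen window, had -3.79 (SE 0.90, adjusted p = 0.00845) by the authors' deposited table. With Nfib amplification, the authors' deposited table gave the same peak -0.44 (SE 0.87, adjusted p = 0.703). It lies within 20 kb of the window's edge and was no longer a member when the windows were shortened by that much.

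The nearest to a CGRP gain was at Thbs1. The peak chr2:117924861-117925361 had 2.22 (SE 0.63, adjusted p = 0.0515) in CGRP liver metastases in the authors' deposited table, beside its 2.62 in Nfib-amplified CMV libraries. The leading Itgb1 peak had 0.06 (95% interval -0.11 to 0.22) in CGRP metastases in the authors' deposited table, and the strongest collagen peak -0.49 (SE 0.15, adjusted p = 0.101). The median CGRP value was -0.05 over the members and 0.01 over all peaks. At the median SE of members (0.47), changes below 0.93 in log2 would not reach an unadjusted p of 0.05. All liver metastases were prepared in batch 2, with 7 of the lung tumors, and the other 4 lung tumors in batch 3; no value within a batch could be had.

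A two-sided z test of the difference between the comparisons, adjusted over all 113873 tested peaks, called 16 of the 86 members, against 23.4% of all peaks. The change was higher in the CMV comparison at 12 and higher in the CGRP comparison at 4 (14% and 4.65%), against 17.8% and 5.62% of all peaks. The collagen window held 8 and 2 of these, Itga6 2 and 0, Thbs1 2 and 1, Fbln5 0 and 1, and Itgb1 none. The collagen gain at chr8:11405670-11406170 exceeded its CGRP value of 0.08 by 4.92 (SE 1.27, adjusted p = 0.00188 by the z test). The collagen loss at chr8:11372081-11372581 differed from its CGRP value of -0.37 by -3.56 (SE 0.84, adjusted p = 6.41e-04). The Itga6 gain at chr2:71557522-71558022 differed from its CGRP value of -0.05 by 3.42 (SE 0.81, adjusted p = 6.69e-04).

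Among the peaks where the comparisons differed, only the collagen peak chr8:11530205-11530705 had a CGRP value that passed its own test. At the Thbs1 peak chr2:117993516-117994016, the CGRP value was -1.70 (SE 1.14, adjusted p = 0.677) and the difference 5.05 (SE 1.54, adjusted p = 0.00942). The strongest Fbln5 peak had 0.34 (SE 0.27, adjusted p = 0.751) in CGRP metastases, and the difference was -1.22 (SE 0.41, adjusted p = 0.0191). A collagen peak chosen after its values were seen, chr8:11173224-11173724 with a mean count of 118, had 1.10 (SE 0.30, adjusted p = 0.00143) in Nfib-amplified CMV libraries and -0.84 (SE 0.27, adjusted p = 0.110) in CGRP metastases in the authors' deposited table, a difference of 1.94 (SE 0.41, adjusted p = 1.05e-04). The Thbs1 gain at chr2:117924861-117925361 had a difference of 0.41 (95% interval -1.37 to 2.18), too wide to tell the comparisons apart.

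**Figure D4:**
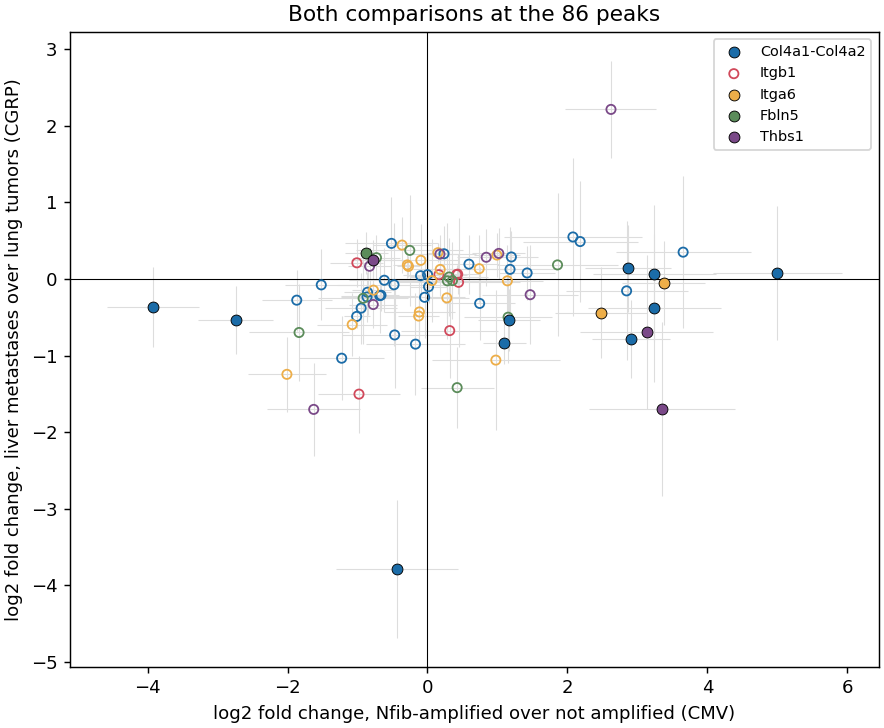
Liver metastases over lung tumors with Ad-CGRP-Cre (vertical axis) against Nfib-amplified over not amplified CMV libraries (horizontal axis), log2 fold change with SE bars, at the 86 peaks; filled points differed between the comparisons at an adjusted p under 0.05. Points spread from -3.93 to 5.0 along the CMV axis, and CGRP values from -3.79 to 2.22.

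Across the 86 peaks, the comparisons had a Pearson's r of 0.19 and a Spearman's rho of 0.23, against 0.15 and 0.17 across all peaks. Peaks of a locus are neighbours and share libraries, so this is a description.

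Summits of the pooled libraries showed where peaks could be called in each setting. The pools were a CMV pool of 19 libraries (15 of them low in enrichment), a CGRP pool of 14 and a mixed pool of 11 CMV and 4 CGRP libraries. A summit within 250 bp of the centre was present at 73 of the 86 members in the CMV pool (84.9%), 71 in the CGRP pool (82.6%) and 83 in the mixed pool (96.5%), against 88.6%, 75% and 89.5% of all merged peaks. All 3 pools had one at 61 members (70.9%), against 64.8% of all merged peaks. The CGRP pool lacked a summit at 12 members that had one in the CMV pool, and the reverse held at 10 (14% and 11.6%), against 22.6% and 9.10% of all peaks. Of these members, 8 and 6 were in the collagen window.

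The summit of the leading Itgb1 peak ranked above 99.4% of the CMV pool, 99.2% of the CGRP pool and 99.1% of the mixed pool, by the authors' score. At the largest collagen gain, the CMV pool had a summit of score 41.4 and the CGRP pool had none. At the largest collagen loss, the CGRP pool had a summit of score 91.1 and the CMV pool had none. Each merged peak is itself a summit kept from a single pool: the CMV pool for this gain and the CGRP pool for this loss. Presence in those pools was thus fixed in advance, and only the lack of a summit in the other was not. Of the 20 raised members, 11 held a CGRP-pool summit (55%), against 15 of the 16 lowered (93.8%); over all peaks these shares were 54.6% and 97.9%. The CMV and CGRP pools came from different preparation batches, so vector and batch cannot be told apart there.

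**Figure D5:**
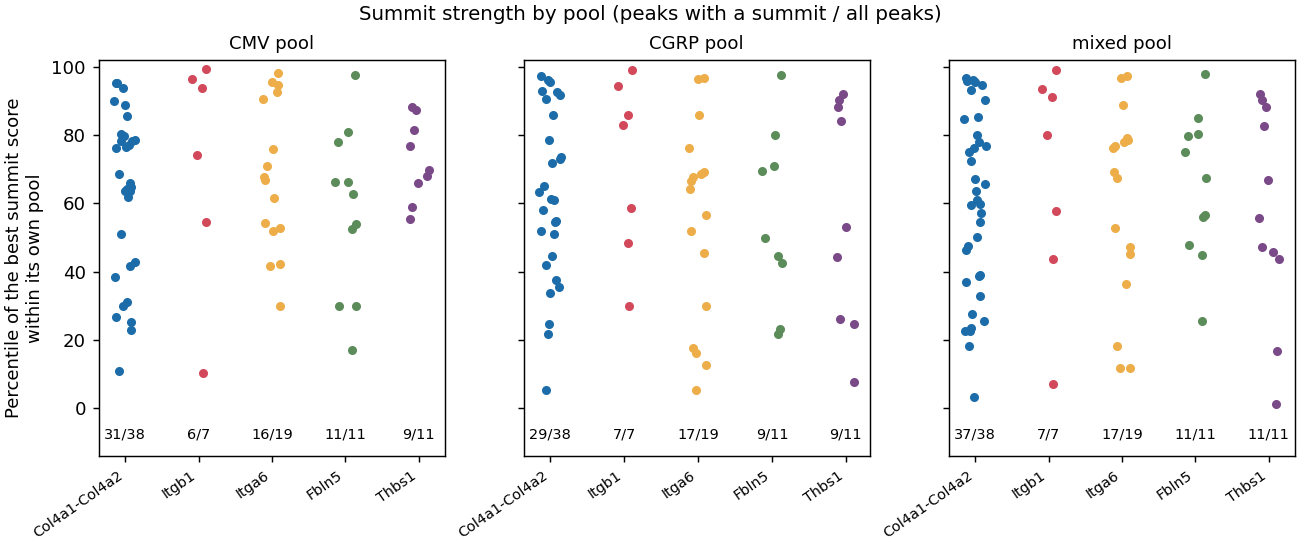
Percentile of the best summit score within its own pool (vertical axis) for each member with a summit within 250 bp, by locus, in the CMV, CGRP and mixed pools; the fraction under each column is members with a summit over all members. The leading Itgb1 peak sits at 99.4, 99.2 and 99.1, and the collagen window has summits at 31, 29 and 37 of its 38 peaks.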

How the data were processed

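ATAC-seq measures open chromatin through insertions of Tn5 transposase. The submitters' processing notes list Bowtie2, DESeq2, MACS2 and mm9 with neither version nor role. Nothing used here states a Tn5 read shift, duplicate removal or the peak filter. The deposited summit score was read as −log10 of a q-value from its smallest value, 1.30. Mean normalised counts are a signal made by the authors over libraries, and the file headers do not state which libraries entered. Deposited beside them are log2 fold changes with SEs, Wald statistics (used as a score by the authors' tests), and raw and adjusted p-values. Directions rest on the names of the deposited tables.

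Peaks were joined by name, and all 114043 merged peaks were checked to have a summit with their own name at the centre. Intervals are the value ± 1.96 SE. The difference between comparisons was tested by a z test (SE: root of summed squares) with Benjamini-Hochberg adjustment over all peaks. The procedure was tested on data simulated with normal errors from the deposited SEs and no shift at unchanged peaks. That setting does not cover a shift of most values, such as the CMV median of 0.60 over all peaks. Of the members, 4 had no adjusted p in the CGRP comparison. Described sites were, per locus, the 3 peaks of highest mean count, up to 3 raised and 3 lowered CMV peaks of largest change, and every called CGRP peak. Members, lists and tests were chosen with earlier results of these data known. Replicates may share animals or tumors, so p-values may measure technical spread. The description of 1 not amplified CMV library does not list the comparison table. Amplified and not amplified CMV libraries came from preparation batches 1 (2 and 2) and 3 (6 and 5). Planned lists of other matrix genes and of cell type markers need an mm9 annotation and were not analysed here, nor was tissue checked against markers. Software was Python 3.11.15 with scipy 1.17.1, numpy 2.4.6, pandas 2.3.3 and, for plots, matplotlib 3.10.9.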

Additional observations from a re-analysis of the deposited data

Results flagged for a closer look

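Summits of the pooled libraries lay in the windows outside the merged peaks that the comparisons used, more than 250 bp from any merged centre: 39 of 116 in the CMV pool, 54 of 127 in the CGRP pool and 55 of 141 in the mixed pool. Most were weak, with median scores by pool and locus from 3.91 to 11.5. The strongest was a CGRP-pool summit of score 216 at chr2:71640420 in the Itga6 window, with a mixed-pool summit of score 88.8 at chr2:71640423. In the collagen window, the strongest outside summit of the CGRP pool had a score of 77.4 and stood at chr8:11363514. At Thbs1, the CMV, CGRP and mixed pools had summits of score 49.2, 63.4 and 27.7 from 117937023 to 117937085 on chromosome 2. No fold change exists for these sites in the tables used here.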

How the results depend on the processing

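Scaling mattered most. With the CMV values centred on the median of all peaks, 12 members were raised and 32 lowered, and the differences were 7 higher in CMV and 19 higher in CGRP (8.14% and 22.1%, against 9.13% and 15.8% of all peaks). The CMV medians then became -0.45 (all 5 windows), -0.62 (Col4a1-Col4a2), -0.29 (Itgb1), -0.54 (Itga6), -0.32 (Fbln5) and 0.24 (Thbs1). Signs turned at the strong peaks of Itgb1 (-0.17, -0.44 and -0.19), Itga6 (-0.45), Fbln5 (-0.29) and Thbs1 (-0.43); of these, the called Itgb1 gain of 0.42 became -0.19, while -0.44 at Itgb1 and -0.45 at Itga6 were then called lowered, as were strong peaks of Col4a1-Col4a2 (-0.70), Itga6 (-0.87 and -0.73) and Thbs1 (-1.38) that were not called before. The stricter deposited test left 12 raised and 5 lowered CMV members and 0 lowered CGRP members. At a threshold of 0.01, 5 CMV members were lowered, and 7 and 1 differed; at 0.1, 1 CGRP member was raised and 9 differed toward CGRP. With a mean count of at least 20, 10 CMV members were raised, 6 differed toward CMV and the Thbs1 median was -0.30. Windows extended by 50 kb took in more peaks and gave 32 raised CMV peaks, 20 higher in CMV and a Fbln5 median of -0.49. Windows shortened by 20 kb gave 0 lowered CGRP peaks. Shares over all peaks were not computed for the other thresholds, the mean count minimum or the changed windows. Those counts therefore do not show whether the members moved more than peaks in general. A summit score of at least 5 left 72.1% of members in the CMV pool and 87.2% in the mixed pool, and a distance of 100 bp left 89.5% in the mixed pool. The other 27 of 44 counts over all windows stayed within 1.5 times, and 41 of 48 medians moved by less than the median SE of their peaks. Every median that moved further was a CMV one. Of the counts by locus, 163 stayed within 1.5 times and 57 did not. Most CGRP counts by locus were 0 in both settings compared, which was scored as unchanged. These totals therefore overstate how stable the CMV counts were. No library could be left out, since values per library were not analysed here, and depth is unknown. No paired analysis was possible because the comparison tables hold fitted values and no columns of libraries.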

Other observations

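At the 10 window edges, the members just inside had CMV log2 fold changes from -1.01 to 3.37 (6 of 10 called), and the first peaks outside from -3.85 to 3.26 (4 of 10 called), in the authors' deposited table, where 46.5% of all peaks were called. The peak outside at -3.85 lay 26.8 kb beyond the Fbln5 window, with -1.72 in CGRP metastases. On the other side of the Fbln5 window, the first merged peak lay 559 kb away.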
